A study of Arabidopsis thaliana with 9 samples.

Results

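The genes described here encode proteins of the cytosolic ribosome of Arabidopsis thaliana, measured in roots of the lines cngc1-3 and cngc19 and of the wild type Col-0. A list of 60 loci was given, and each locus with a probe set annotated to it and to no other gene became a member, with its brightest probe set used. This gave 49 members among 22746 non-control probe sets of the ATH1 array, 24 of the small (40S) subunit and 25 of the large (60S) subunit, each with exactly 1 probe set. The protein names RPS and RPL, for small and large subunit, follow the established Arabidopsis nomenclature and were not read from the deposited files. Of the 11 other loci, 8 lie on probe sets shared by several genes and 3 (RPS15aA, RPL8C and RPL27aC) had no named probe set here.

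The cytosolic ribosome makes the proteins encoded in the nucleus: the small subunit reads the messenger RNA and the large subunit joins the amino acids. Every ribosome needs a copy of most of these proteins, so their messages are among the most abundant in dividing and growing tissue such as the root tip. In Arabidopsis each protein is encoded by a small family of paralogous genes, whose products are closely alike. Roles named below come from ribosome structures and genetics of yeast and mammals unless stated otherwise.

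The study held 9 arrays, 3 per line. The lines cngc1-3 and cngc19 are labelled T-DNA knockouts in the Col-0 background, and the wild type is Col-0 of stock N1092. The CNGC family comprises cation channels of the plant cell membrane that are gated by cyclic nucleotides. All plants were at stage 3.90, moved to hydroponics 18 days after germination and harvested after 7 more days, at 25 days, with roots of 20 to 30 plants bulked per tube. No caesium treatment is listed for any array although the series is titled for caesium toxicity. Nothing states whether tubes of a line came from separate cultures. The p-values therefore set the differences between lines against the spread of these tubes within lines, and part of that spread may be technical.

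Several arrays stood apart. The median ratio of the 45 spiked control probe sets to the remaining arrays was 18.6 on Col-0 replicate 2. It was 6.55 on Col-0 replicate 3, and 0.658 to 1.27 on each of the other 7 arrays. On cngc1-3 replicate 3 the 3′ to 5′ signal ratio, a measure of RNA integrity, was 6.37 for GAPDH and 199.7 for actin. Col-0 replicate 3 came next, at 2.81 and 5.81, and no other array was above 1.07 for GAPDH or 2.94 for actin. Col-0 replicate 2 was the lowest, at 0.240 and 1.34. Of 14 root markers, PYK10 and EXPA7 had probe sets. The signal of PYK10, a root beta-glucosidase, was 5559, 4891 and 4690.3 in cngc1-3 and 5434, 4409 and 3762 in cngc19, against 4398, 261 and 448 in Col-0. That of EXPA7, a root hair expansin, was 60.3, 115 and 23.0 in cngc1-3 and 80.3, 75.1 and 121 in cngc19, against 195, 318 and 28.6 in Col-0. PYK10 was thus low on Col-0 replicates 2 and 3, whereas EXPA7 was highest on Col-0 replicate 2. Of 15 shoot markers, 5 photosynthesis genes had probe sets, and they summed to 397 to 467 in cngc1-3, 136 to 776 in cngc19, and 98.8, 894 and 12112 on the 3 Col-0 arrays. No marker was listed at 0. The part of these array differences in the results below was not tested.

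Ribosomal protein genes gave some of the brightest signals in both mutant lines and on Col-0 replicates 1 and 3. The median member signal was 2385, 2092 and 1924 on cngc1-3 replicates 1, 2 and 3, then 2067, 2035 and 1283 on those of cngc19, against 1417, 154.4 and 733 on those of Col-0. Signals are deposited MAS5 intensities with no unit, scaled by the authors so that each array has a trimmed mean near 100. The groups did not overlap between cngc1-3 and Col-0, whereas cngc19 replicate 3 lay below Col-0 replicate 1.

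**Figure D1:**
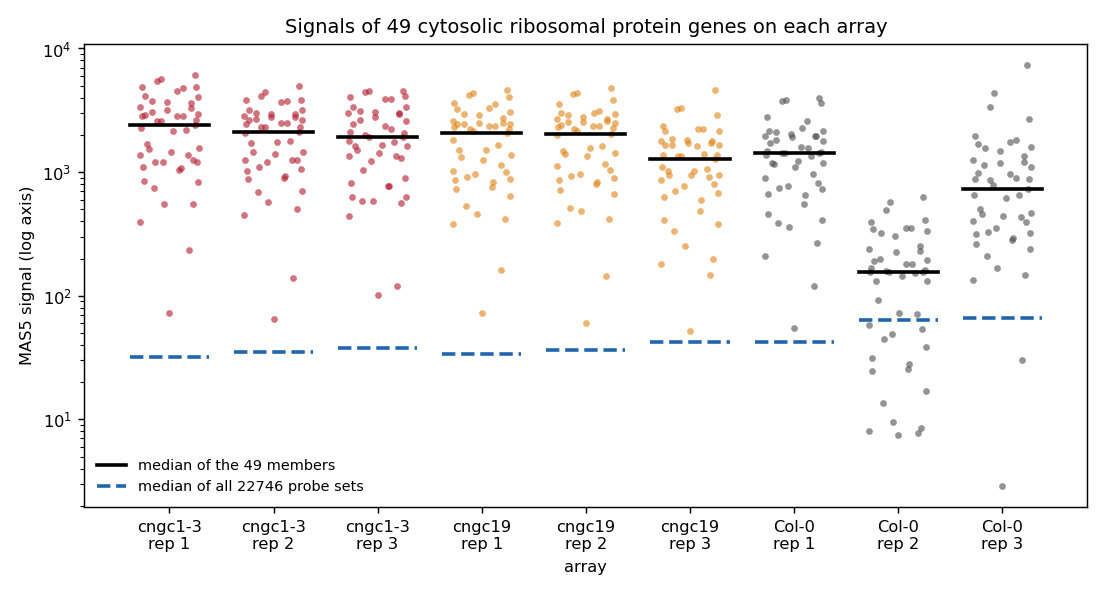
MAS5 signals (log axis) of the 49 ribosomal protein genes on each of the 9 arrays, 1 point per gene, with the member median (black line) and the median of all 22746 probe sets (dashed line). The member median is 1283 or more on the 6 mutant arrays and 154.4 on Col-0 replicate 2.

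Ranked among all probe sets of its array, the median member stood at the 99.1st, 99.1st and 98.9th percentile in cngc1-3, at the 99.0th, 99.1st and 98.4th in cngc19, and at the 98.7th, 73.1st and 97.7th in Col-0. The mean of this rank was 99.03 ± 0.138 in cngc1-3, 98.8 ± 0.364 in cngc19 and 89.8 ± 14.5 in Col-0 (SD, n = 3 each). Col-0 replicate 2 alone sets the low Col-0 mean, which is 98.2 without it. A rank is one of signal, since probe sets differ in affinity.

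The 49 members make up 0.215% of the probe sets. They carried 3.63%, 3.21% and 3.14% of the summed signal in cngc1-3, 2.97%, 3.02% and 2.15% in cngc19, and 2.36%, 0.331% and 1.43% in Col-0. The share was thus above 2% on all arrays but Col-0 replicates 2 and 3. Of the 49, 22 to 26 ranked in the top 1% of each cngc1-3 array and 18 to 26 of each cngc19 array, against 18, 3 and 8 in Col-0. No member lay below the array median on the mutant arrays or on Col-0 replicate 1, while 16 did on Col-0 replicate 2 and 2 on Col-0 replicate 3. Col-0 replicates 2 and 3 were also the arrays with spiked control ratios of 18.6 and 6.55, taken over low signals on the other arrays. In bulk roots, fewer cells of a growing type and less RNA per cell cannot be told apart, and the part of array quality was not tested.

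Across the 49 genes, Pearson's r of the log2 signals lay between 0.832 and 0.995 for pairs of arrays other than Col-0 replicate 2, and between 0.186 and 0.308 for pairs with it. These correlations are descriptions over genes that share arrays and carry the affinities of their probe sets. Col-0 replicate 1 was nearest to cngc19 replicate 3, at r = 0.978, and reached 0.884 with Col-0 replicate 3 and 0.249 with Col-0 replicate 2. When all 13648 tested probe sets were used, r between Col-0 replicate 3 and each other array was only 0.227 to 0.376, and r of Col-0 replicate 2 with the mutant arrays and Col-0 replicate 1 was -0.04 to -0.02. There cngc19 replicate 3 reached 0.950 with Col-0 replicate 1, against 0.803 and 0.814 with the arrays of its own line.

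The arrays also shared an order within genes. The lowest array was Col-0 replicate 2 for 44 members and Col-0 replicate 3 for the other 5, while the highest was cngc1-3 replicate 1 for 29 and cngc1-3 replicate 3 for 11. On the log2(signal + 16) scale, which is used for all differences below, members lay lower on Col-0 replicate 2 than on replicate 1 by a median difference of -3.08, with 46 of 49 lower. Col-0 replicate 3 differed from replicate 1 by a median of -0.82, with 43 of 49 lower. In cngc19, replicate 3 differed from the mean of the other 2 by a median of -0.57, with 45 of 49 lower. From Col-0 replicate 1 it differed by only -0.10. Over all 22746 probe sets, Col-0 replicates 2 and 3 differed from replicate 1 by medians of 0.51 and 0.29. There cngc19 replicate 3 differed from replicates 1 and 2 of its line by 0.11 and 0.08, and from Col-0 replicate 1 by 0.03. For the counts by array, shares over all probe sets were not computed.

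**Figure D2:**
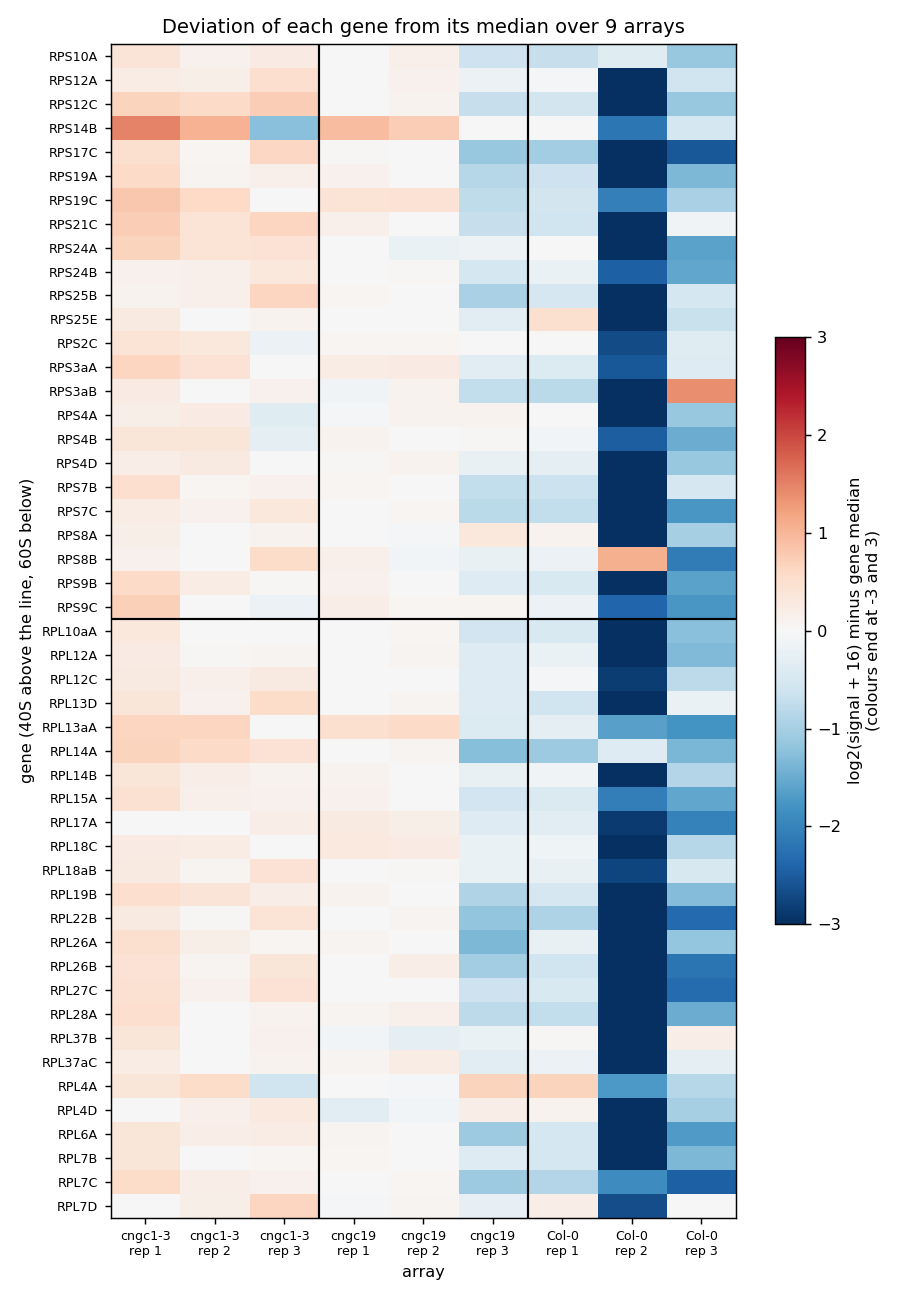
Deviation of each of the 49 genes (rows, 40S above the line and 60S below) from its own median over the 9 arrays, on the log2(signal + 16) scale with colours ending at -3 and 3. Col-0 replicate 2 is the darkest blue column, and cngc19 replicate 3 resembles Col-0 replicate 1.

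Leaving out Col-0 replicates 2 and 3, 37 of 49 members had Col-0 replicate 1 and cngc19 replicate 3 as their 2 lowest of 7 arrays. The share over all probe sets was not computed for this count. Over these 7 arrays the SD of a member's log2 signal was smallest for RPS8A at 0.13 and largest for RPS14B at 0.92. Over all 9 arrays it was smallest for RPS10A (0.52), RPL14A (0.81), RPL4A (0.81), RPS8B (0.86), RPL15A (0.86) and RPS19C (0.93). The largest over 9 arrays were those of RPL14B (2.30), RPS9B (2.20), RPL6A (2.15), RPL37B (2.06), RPS19A (1.90) and RPL27C (1.88). Signals under the added constant of 16, for which the size of a log2 difference depends on that constant, were found in 6 members on Col-0 replicate 2 and in RPS8B on Col-0 replicate 3.

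Among the small subunit genes, RPS8A (AT5G20290) and RPS9B (AT5G15200) were the brightest by mean signal. The protein of RPS9B binds ribosomal RNA early in 40S assembly and lies at the messenger RNA entry. RPS9B had signals of 5681, 4451 and 3906 in cngc1-3 and 4168, 3819 and 2903 in cngc19, against 2766, 25.8 and 1248 in Col-0. All 6 mutant arrays lay above all 3 Col-0 arrays. RPS8A had 4143, 3664 and 3927 in cngc1-3 and 3618, 3583 and 4586 in cngc19, against 3973, 226 and 1815 in Col-0. Here Col-0 replicate 1 lay inside the range of the mutants, and only Col-0 replicates 2 and 3 were lower.

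RPS17C (AT3G10610), whose protein lies in the head of the small subunit, had the largest difference between cngc1-3 and Col-0. Its signals were 1208, 902 and 1342 in cngc1-3 and 887, 860.2 and 382 in cngc19, against 407, 9.45 and 135 in Col-0. The cngc1-3 arrays were all above Col-0, and cngc19 replicate 3 lay just under Col-0 replicate 1. RPS19A (AT3G02080), for a head protein needed to mature the small subunit RNA, had 4496, 3203 and 3358 in cngc1-3 and 3307, 3027 and 1671 in cngc19, against 1956, 44.3 and 1176 in Col-0. As in RPS17C, cngc19 replicate 3 lay under Col-0 replicate 1 and the cngc1-3 arrays lay above all Col-0 arrays.

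RPS12C (AT2G32060), for a protein of the small subunit's beak, had 1541, 1441 and 1629 in cngc1-3 and 969.9, 1038 and 594 in cngc19, against 656, 72.5 and 431 in Col-0. Its cngc1-3 arrays were above all others. RPS21C (AT5G27700), which encodes another small subunit protein, had 4884, 3852 and 4532 in cngc1-3 and 3228, 2898 and 1789 in cngc19, against 1923, 133 and 2695 in Col-0. On Col-0 replicate 3 its signal was within the cngc19 range.

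A few small subunit genes had arrays of their own pattern. RPS14B (AT3G11510), for a protein of the platform, had 4053, 2949 and 587 in cngc1-3 and 2726, 2383 and 1411 in cngc19, against 1425, 306 and 985 in Col-0. On cngc1-3 replicate 3, the array with the highest 3′ to 5′ ratios, its log2 signal differed by -2.53 from the mean of the other 2 cngc1-3 arrays. RPS3aB (AT4G34670), of a family at the messenger RNA exit, had 3278, 2772 and 3034 in cngc1-3 and 2579, 2983 and 1659 in cngc19, against 1563, 70.8 and 7345 in Col-0. That 7345 on Col-0 replicate 3 was the highest member signal of any array. RPS10A (AT4G25740), for a protein near the messenger RNA entry, had 843, 705 and 766 in cngc1-3 and 641, 712 and 412 in cngc19, against 391, 496 and 283 in Col-0, so that Col-0 replicate 2 was here the brightest of its line.

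The dimmest small subunit genes were RPS8B (AT5G59240), RPS9C (AT5G39850) and RPS25B (AT2G21580). RPS8B had 71.9, 64.3 and 102 in cngc1-3 and 72.9, 59.7 and 52.3 in cngc19, against 55.3, 152 and 2.88 in Col-0, with Col-0 holding both its highest and its lowest array. RPS9C had 236, 139 and 121 in cngc1-3 and 163, 145 and 148 in cngc19, against 120.4, 13.6 and 29.9 in Col-0. All 6 mutant arrays were above Col-0, narrowly so for Col-0 replicate 1. RPS25B, of a family that sits in the head of the subunit, had 555, 572 and 809 in cngc1-3 and 534, 514 and 253 in cngc19, against 359, 31.3 and 350.0 in Col-0. Its cngc1-3 arrays were above Col-0, while cngc19 replicate 3 was below Col-0 replicates 1 and 3.

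Among the large subunit genes, RPL37aC (AT3G60245), RPL26A (AT3G49910), RPL37B (AT1G52300) and RPL28A (AT2G19730) were the brightest. RPL37 and RPL37a are zinc-binding proteins, and RPL26 sits by the exit of the tunnel through which the new protein leaves. RPL26A had 6122, 4950.2 and 4566 in cngc1-3 and 4617, 4384 and 1717 in cngc19, against 3741, 169 and 1957 in Col-0. Its cngc1-3 arrays were above Col-0, and cngc19 replicate 3 was below Col-0 replicates 1 and 3. RPL37aC had 4819, 4111 and 4405 in cngc1-3 and 4339, 4789.9 and 3312 in cngc19, against 3610.2, 189.5 and 3349 in Col-0. RPL37B had 4859, 3753 and 4126 in cngc1-3 and 3536, 3097 and 3255 in cngc19, against 3835, 38.4 and 4337 in Col-0. Both genes were as bright on Col-0 replicates 1 and 3 as on some mutant arrays, and low only on Col-0 replicate 2. RPL28A had 5417, 3824 and 4085 in cngc1-3 and 4069, 4254 and 2212 in cngc19, against 2269, 334 and 1342 in Col-0. For RPL28A, cngc19 replicate 3 was the only mutant array not above all of Col-0.

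RPL6A (AT1G18540), RPL27C (AT4G15000) and RPL14B (AT4G27090), differed most between the mutants and Col-0 among the large subunit genes. RPL6A had 2607, 2321 and 2363 in cngc1-3 and 2162, 2035 and 951 in cngc19, against 1417, 8.03 and 616 in Col-0. RPL27C had 2265, 1782 and 2232 in cngc1-3 and 1645, 1636 and 1054 in cngc19, against 1192, 24.7 and 318 in Col-0. In both, all cngc1-3 arrays were above Col-0, and cngc19 replicate 3 was below Col-0 replicate 1. RPL14B had 3589, 3176 and 2991 in cngc1-3 and 2964, 2775 and 2357 in cngc19, against 2567, 7.74 and 1495 in Col-0. Its log2 difference between Col-0 replicates 2 and 1 was -6.77, with the signal of 7.74 under the added constant.

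RPL14A (AT2G20450), the paralogue of RPL14B, behaved otherwise: it had 746, 693 and 632 in cngc1-3 and 461, 486 and 182 in cngc19, against 208, 346 and 168 in Col-0. The cngc1-3 arrays were above the other 6 arrays, and Col-0 replicate 2 was the highest of its line. RPL4A (AT3G09630), of a family lining the exit tunnel, had 1106, 1258 and 558 in cngc1-3 and 859.6, 831 and 1365 in cngc19, against 1377, 251 and 471 in Col-0. The highest arrays of RPL4A were Col-0 replicate 1 and cngc19 replicate 3, which were the lowest 2 of the 7 arrays for most members. The dimmest large subunit genes beside RPL14A were RPL19B (AT3G16780), of a family that bridges the subunits, with 17.0 to 554, and RPL7D (AT3G13580) with 49.3 to 625 over the 9 arrays. Mean signals of the members outside the 6 brightest and the 6 dimmest lay between those of RPS25B (442) and RPL28A (3089).

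In cngc1-3 against Col-0 the question is whether root transcripts differ between the line and the wild type. All 49 members were higher in cngc1-3, where 48.9% of all tested probe sets were, by a median log2 fold change of 1.77, against -0.03 over all 13648 tested probe sets. None passed limma's moderated test at a Benjamini-Hochberg adjusted p under 0.05, where 0% of all tested probe sets passed. At an unadjusted p under 0.05 there were 23 members, all higher, where 24.2% of all tested probe sets passed in either direction and 12.4% as higher. The SE in this model pools the spread of all 3 lines. With only the arrays of cngc1-3 and Col-0 in the model, 11 members had an unadjusted p under 0.05, where 1990 of 13648 probe sets did. In 37 members every cngc1-3 array was above every Col-0 array, where 13.1% of the tested probe sets showed this.

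The 24 small subunit genes had a median log2 fold change of 1.68 and the 25 large subunit genes one of 1.89. RPS17C had the largest, 3.29 ± 0.87 (SE; adjusted p = 0.181 in limma). It was followed by RPS9B (3.14 ± 1.33), RPL6A (3.13 ± 1.24), RPL27C (3.05 ± 1.02), RPL14B (2.85 ± 1.43) and RPS19A (2.81 ± 1.17). Col-0 replicate 2 sets much of these values: without it they were 2.19 for RPS17C, 1.31 for RPS9B, 1.36 for RPL6A, 1.72 for RPL27C, 0.72 for RPL14B and 1.25 for RPS19A. Against Col-0 replicate 1 alone they ran between 0.34 for RPL14B and 1.44 for RPS17C. The smallest over all arrays were those of RPS8B (0.63 ± 0.65), RPL4A (0.73 ± 0.72), RPS10A (0.99 ± 0.52) and RPL7D (1.08 ± 0.70). Adjusted p-values of the members ran between 0.181 and 0.550 in limma.

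The size of the difference followed which Col-0 arrays entered. Set against Col-0 replicate 1 alone, the median was 0.58, against -0.08 over all tested probe sets. Of 49 members 46 were higher, with values between -0.57 for RPL4A and 1.65 for RPL14A. Without Col-0 replicate 2 the median was 0.95, and without Col-0 replicate 1 it was 2.46. Without Col-0 replicate 1, 34 members passed the adjusted threshold, where 35.2% of all tested probe sets did. With array weights 8 passed, where 9.0% of all did. On the 5 arrays left without Col-0 replicates 2 and 3 and replicate 3 of each mutant, 26 passed, all higher, where 25.2% of all did. That fit has a single Col-0 array, which is assumed to vary like the mutant arrays.

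In cngc19 against Col-0, which shares the Col-0 arrays with the comparison above, all 49 members were again higher, where 52% of all tested probe sets were, by a median of 1.52 against 0.05 over all tested probe sets. None passed the adjusted threshold in limma, where 0% of all tested probe sets passed. At an unadjusted p under 0.05 there were 6, where 18.1% of all passed in either direction and 9.38% as higher. With only the arrays of cngc19 and Col-0 in the model, 2 members had an unadjusted p under 0.05, where 1131 of 13648 probe sets did. In 8 members all cngc19 arrays were above all Col-0 arrays, where 7.45% of the tested probe sets showed this. Without cngc19 replicate 3, 39 members did, where 19% of the tested probe sets did.

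The small subunit genes had a median of 1.42 and the large subunit genes one of 1.60. The largest log2 fold changes were those of RPS9B (2.77 ± 1.33, SE), RPL14B (2.58 ± 1.43), RPL6A (2.54 ± 1.24), RPS17C (2.53 ± 0.87), RPL27C (2.50 ± 1.02) and RPS19A (2.30 ± 1.17). Without Col-0 replicate 2 they were 0.94 for RPS9B, 0.45 for RPL14B, 0.78 for RPL6A, 1.43 for RPS17C, 1.17 for RPL27C and 0.75 for RPS19A. Against Col-0 replicate 1 alone these genes ran between 0.07 for RPL14B and 0.69 for RPS17C. The smallest over all arrays was that of RPS8B, 0.34 ± 0.65, and the lowest adjusted p of any member was 0.273 in limma. Set against Col-0 replicate 1 alone, the median was 0.27, against -0.05 over all tested probe sets. Of 49 members 40 were higher, with values between -0.60 for RPS25E and 0.69 for RPL14A. Without Col-0 replicate 2 the median was 0.68, and without Col-0 replicate 1 it was 2.19 with 27 members past the adjusted threshold, where 32.6% of all tested probe sets passed. With array weights 5 members passed, where 7.67% of all did, and on the same 5 arrays as above 15 passed, 14 of them higher and RPL4A lower, where 23.8% of all did.

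**Figure D3:**
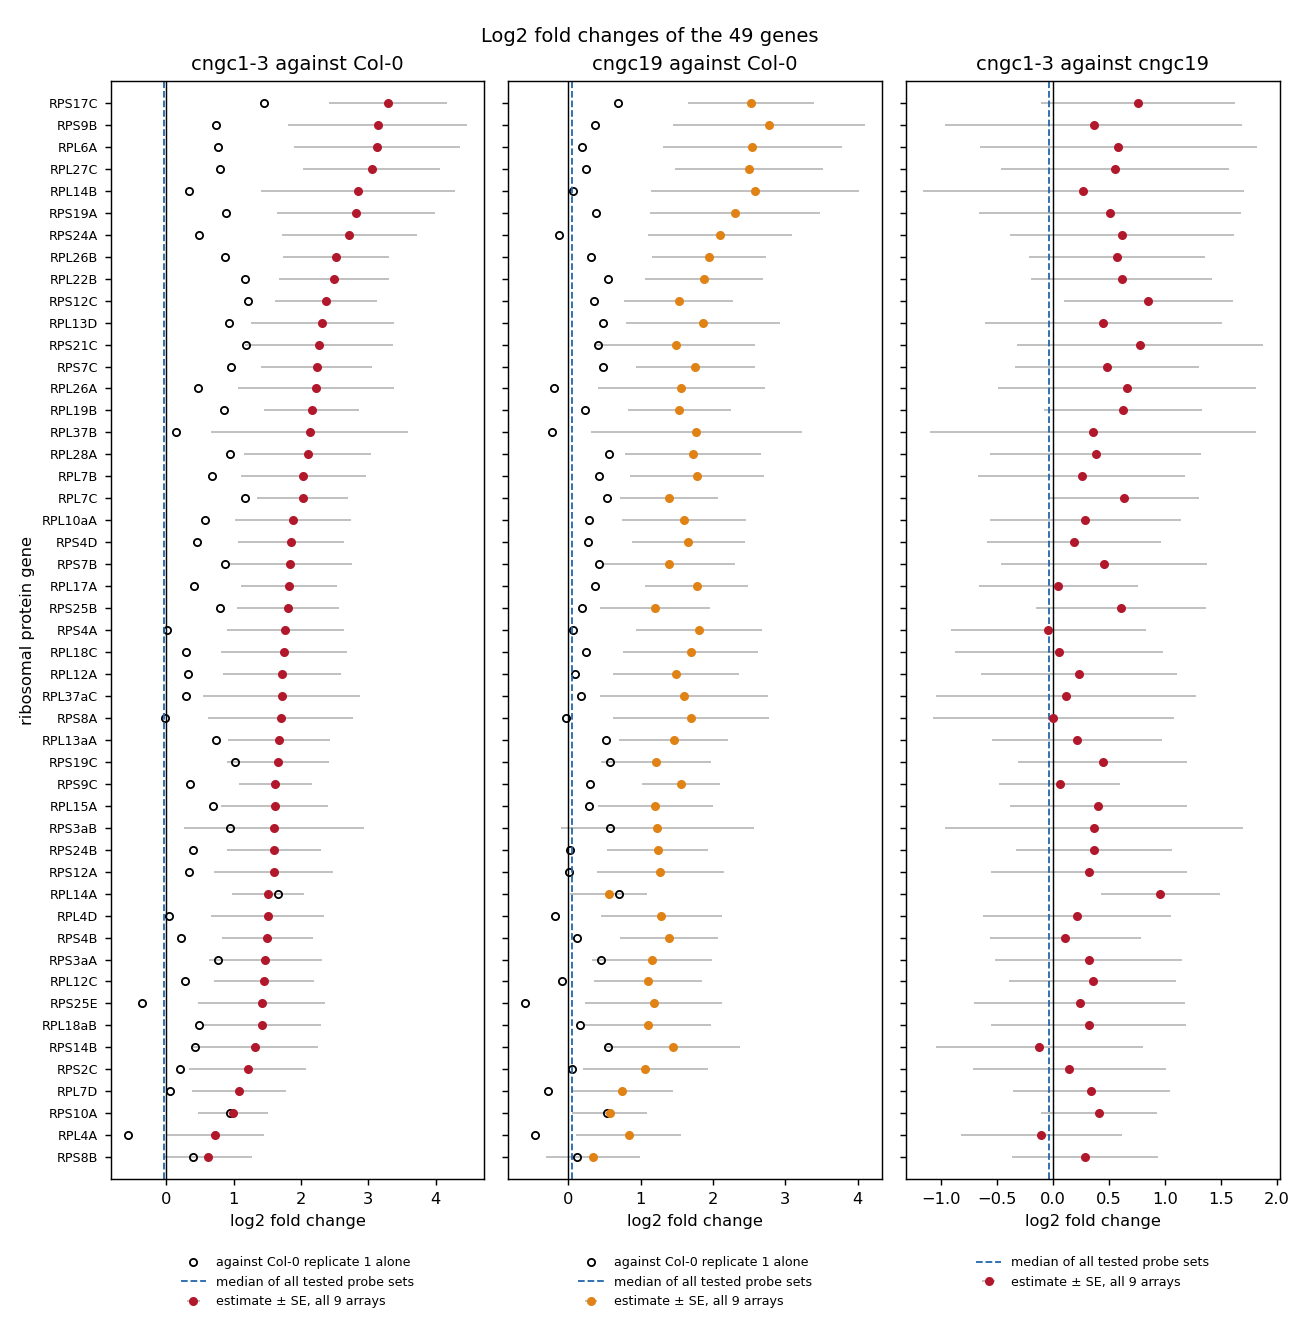
Log2 fold changes of the 49 genes, 1 row per gene, in cngc1-3 against Col-0, cngc19 against Col-0 and cngc1-3 against cngc19, with filled points for the estimate over all 9 arrays and bars for its SE. Open circles are the mutant mean minus Col-0 replicate 1 alone, and they lie nearer to 0 than the estimate for most genes. The dashed line is the median of all tested probe sets.

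The comparison of cngc1-3 against cngc19 uses no Col-0 array for its difference, but its SE pools the spread of all 3 lines. Of 49 members, 46 were higher in cngc1-3, where 45.6% of all tested probe sets were, and the median was 0.36 against -0.03 over all. None passed the adjusted threshold in limma, where 0% of all passed, and none had an unadjusted p under 0.05, where 0.0953% of all did. With only the arrays of these mutants in the model, 4 members had an unadjusted p under 0.05, where 1.7% of all did, and none passed the adjusted threshold. In 19 members every cngc1-3 array was above every cngc19 array, where 4.81% of the tested probe sets showed this. Without cngc19 replicate 3 the median was 0.19, with 43 members higher and 21 not overlapping, where 9.94% of all did not overlap in this direction.

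RPL14A had the largest log2 fold change in cngc1-3 against cngc19, 0.96 ± 0.54 (SE), and the smallest unadjusted p of the members, 0.099 in limma. It was followed by RPS12C (0.85 ± 0.76), RPS21C (0.78 ± 1.10), RPS17C (0.76 ± 0.87), RPL26A (0.66 ± 1.16) and RPL7C (0.63 ± 0.68). Without cngc19 replicate 3 they were 0.53 for RPL14A, 0.61 for RPS12C, 0.52 for RPS21C, 0.37 for RPS17C, 0.20 for RPL26A and 0.26 for RPL7C. The 3 lower genes were RPS14B (-0.12 ± 0.93), RPL4A (-0.11 ± 0.72) and RPS4A (-0.04 ± 0.87), and all 3 were higher in cngc1-3 once cngc1-3 replicate 3 was left out. Among the named genes RPL14A, RPS12C, RPS21C and RPS17C, the cngc1-3 arrays were all above the cngc19 arrays. For RPL26A and RPS14B they overlapped.

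Paralogues were compared within each array, where the array's own scale cancels for signals well above the added constant of 16. The 14 families with several members gave 18 pairs. The SD of a pair's log2 difference over the 9 arrays had a median of 0.60, against 0.70 over all 1176 pairs of members, and over the 7 arrays without Col-0 replicates 2 and 3 it was 0.25 against 0.32. Levels of a pair are not comparable between its probe sets, so only the movement of the difference is described.

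RPL14A minus RPL14B moved most, with an SD of 2.29. The difference was -2.24, -2.17 and -2.22 in cngc1-3 and -2.64, -2.47 and -3.58 in cngc19, against -3.53, 3.93 and -3.04 in Col-0. The sign turned only on Col-0 replicate 2, where RPL14B is under the added constant and the size of 3.93 would be 5.31 with a constant of 1 and 2.51 with one of 64. RPS8A minus RPS8B (SD 1.78) was 5.06 to 5.56 in cngc1-3 and 5.35 to 6.07 in cngc19, against 5.81, 0.52 and 6.60 in Col-0, so the same array stood out. Its 6.60 on Col-0 replicate 3 rests on a signal of 2.88 for RPS8B and would be 8.87 or 4.81 with those constants. RPS9B minus RPS9C (SD 1.38) was 4.50 to 4.85 in cngc1-3 and 4.16 to 4.58 in cngc19, against 4.35, 0.50 and 4.78 in Col-0, where RPS9C too is under the constant on Col-0 replicate 2.

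The next pairs moved on one or both of the same Col-0 arrays. RPS19A minus RPS19C (SD 1.14) was 0.27 to 0.94 in cngc1-3 and 0.36 to 0.70 in cngc19, against 0.71, -2.81 and 0.41 in Col-0. RPS3aA minus RPS3aB (SD 1.08) was -0.52 to 0.05 in cngc1-3 and -0.24 to 0.01 in cngc19, against 0.03, 2.08 and -2.18 in Col-0. The others among the 8 most variable pairs were RPL7C minus RPL7D (SD 0.98), RPS24A minus RPS24B (SD 0.94) and RPL7B minus RPL7C (SD 0.83). On Col-0 replicate 2 RPS24A was under the added constant. Its difference from RPS24B there, -3.38, would be -4.76 with a constant of 1 and -2.04 with one of 64.

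The least variable pairs over the 9 arrays were RPL12A minus RPL12C (SD 0.21), RPS4A minus RPS4D (0.26), RPS12A minus RPS12C (0.39) and RPS7B minus RPS7C (0.43). Over the 7 arrays without Col-0 replicates 2 and 3, RPL12A minus RPL12C was still the least variable (SD 0.092), while RPS12A minus RPS12C, also at 0.39, ranked 5 of 18 from the most variable. RPL12, a protein at the base of the stalk that receives elongation factors, gave differences of 0.94 to 1.08 in cngc1-3 and 1.08 to 1.19 in cngc19, against 0.95, 0.67 and 0.56 in Col-0. It thus stayed between 0.56 and 1.19 on all 9 arrays, Col-0 replicate 2 included.

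**Figure D4:**
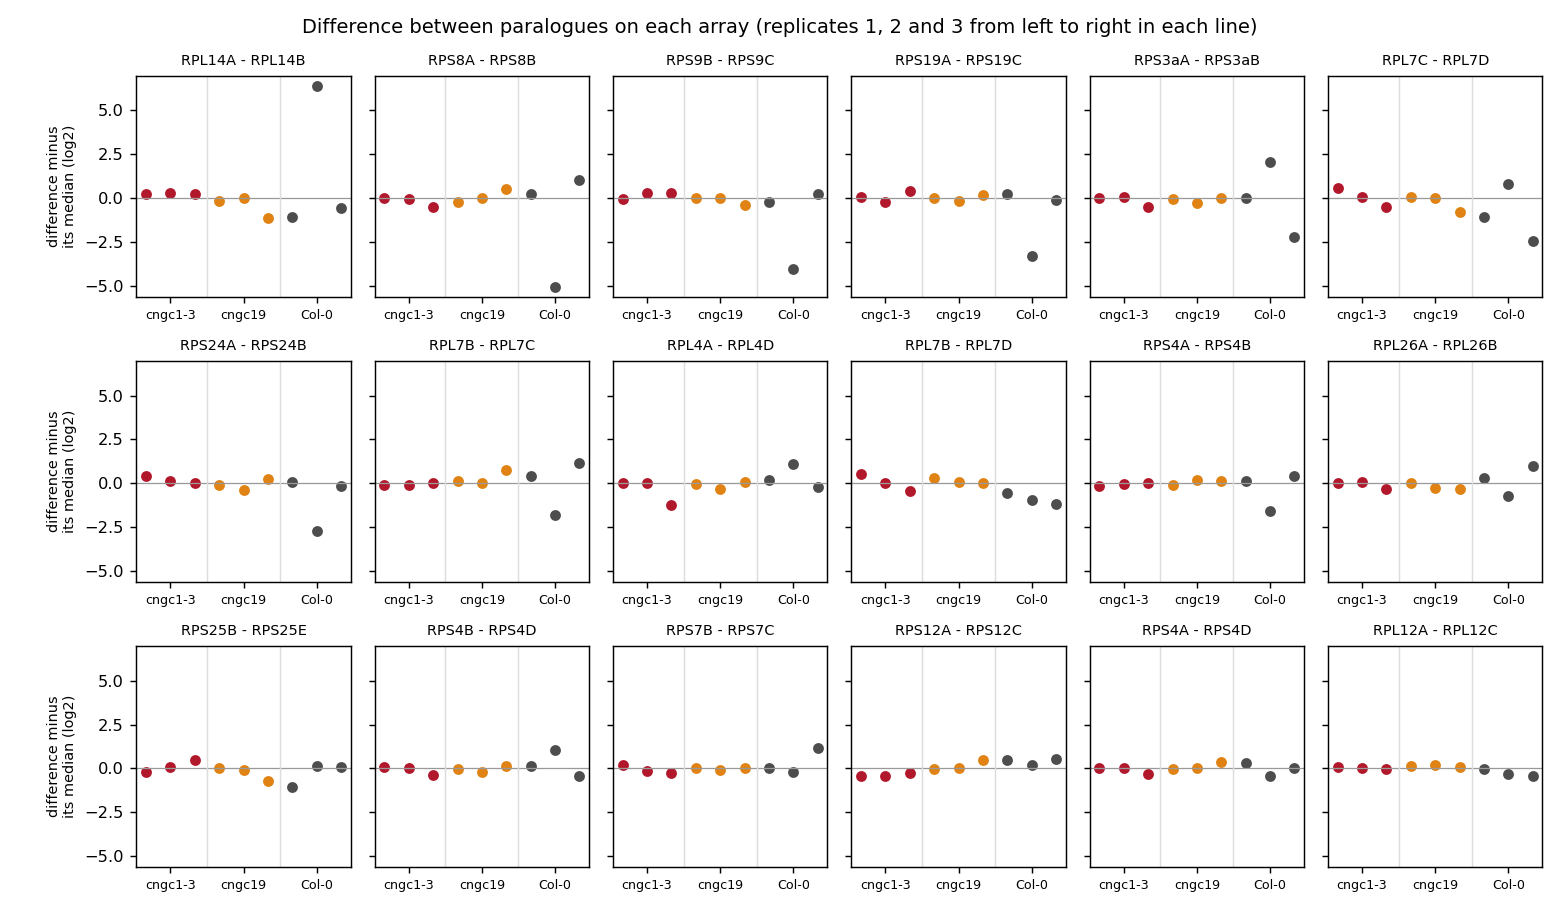
Log2 difference between 2 paralogues on each of the 9 arrays minus its median over the arrays, 1 panel per pair, ordered from the most to the least variable, with arrays of cngc1-3, cngc19 and Col-0 from left to right. In RPL14A minus RPL14B, RPS8A minus RPS8B and RPS9B minus RPS9C the point farthest from 0 is Col-0 replicate 2.

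With 3 arrays a line, the exact two-sided permutation test of a pair difference cannot go below 0.10. This smallest p was reached by 2 of 18 pairs in cngc1-3 against Col-0, where the groups of 20.2% of all member pairs did not overlap. These were RPL7B minus RPL7D, higher by 0.95 in cngc1-3, and RPS12A minus RPS12C, with a difference of -0.79. In cngc19 against Col-0 it was reached by 2 pairs, where 8.59% of all member pairs did not overlap, namely RPL7B minus RPL7D (1.04) and RPL12A minus RPL12C (0.39). In cngc1-3 against cngc19 it was reached by 4 pairs, where 16.8% of all member pairs did not overlap: RPL14A minus RPL14B (0.69), RPS12A minus RPS12C (-0.53), RPL7B minus RPL7C (-0.38) and RPL12A minus RPL12C (-0.12). Without cngc19 replicate 3 the first was 0.35 and the difference of RPL7B minus RPL7C was -0.15. The counts were near those that the shares over all member pairs give.

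RPS12A minus RPS12C was 0.47, 0.51 and 0.68 in cngc1-3 and 0.91, 0.93 and 1.42 in cngc19, against 1.43, 1.15 and 1.44 in Col-0. All cngc1-3 arrays were below the other 6 arrays, while cngc19 and Col-0 overlapped through cngc19 replicate 3.

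Genes that work with the ribosome were looked up in lists. Of 30 translation factors 4 had a probe set of their own, of 30 ribosome biogenesis genes 9, and of 6 genes of the TOR pathway, which sets ribosome production by nutrient supply, 1. None passed the adjusted threshold in any comparison in either direction. In cngc1-3 against Col-0 all 4 translation factors and 6 of 9 biogenesis genes were higher. In cngc19 against Col-0 these were 3 of 4 and 7 of 9, and in cngc1-3 against cngc19, 2 of 4 and 7 of 9. Over all tested probe sets the shares higher were the 48.9%, 52% and 45.6% given above, with 0% past the adjusted threshold.

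AT3G23620, of the Brix family of ribosome assembly proteins, had 573, 369 and 401 in cngc1-3 and 345, 336 and 249 in cngc19, against 173, 19.3 and 52.4 in Col-0. All mutant arrays were above Col-0, at a log2 fold change of 2.56 ± 0.58 (SE; limma adjusted p = 0.181) in cngc1-3 and 2.07 ± 0.58 (limma adjusted p = 0.273) in cngc19. RAPTOR1, a partner of the TOR kinase, had 29.9, 51.4 and 37.6 in cngc1-3 and 36.8, 48.8 and 109 in cngc19, against 91.1, 68.9 and 93.5 in Col-0. Its cngc1-3 arrays were below Col-0, by a log2 fold change of -0.86 ± 0.42 (limma adjusted p = 0.226). AT3G05060, on the biogenesis list, had 87.1, 140.1 and 65.7 in cngc1-3 and 144, 120.0 and 182 in cngc19, against 164, 287 and 162 in Col-0. It too was below Col-0 on every cngc1-3 array, by -0.96 ± 0.43 (limma adjusted p = 0.203).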

How the data were processed

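The series matrix held 22810 probe sets on 9 arrays, of which 64 were controls. Each value is a linear signal intensity as deposited, and the submitters' processing notes name MAS5 and GCOS. The 2% trimmed mean was 100.0 on every array, so the deposited scaling was kept. Precision is limited by the number of arrays. Members, gene lists and alternatives were chosen with earlier results of these data known. Locus names came from the platform annotation, updated through a RefSeq gene table.

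Lines were taken from the sample titles and compared by limma's moderated test (limma 3.58.1, R 4.3.3; eBayes with intensity trend) on log2(signal + 16), all 9 arrays in 1 model, two-sided, with Benjamini-Hochberg adjustment over the 13648 probe sets at or above the 40th percentile of mean log2 signal. The filter kept all 49 members. Genes named with values were the 6 brightest and dimmest, the 6 with the largest difference in each direction of each comparison, the 6 of largest and smallest SD, and the 8 most and 4 least variable paralogue pairs. RPS25E and RPS3aB were described after their values were seen. In simulated data for cngc1-3 against Col-0, limma called 18% of probe sets given a log2 change of 2 and 70% of those given 3. The simulated noise was independent between probe sets and equally wide in each line, unlike that of the Col-0 arrays here. These shares therefore need not hold for the measured arrays. Tables and plots used Python 3.11.15. Alternatives were pseudocounts, filters, scaling, array weights, a replicate block and left-out arrays.

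The CNGC genes had no named probe set, so the line labels were not checked through them. The lists of plastid and mitochondrial ribosomal proteins were not used here, since the gene table at hand carries no descriptions. No sequences were analysed here.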

Additional observations from a re-analysis of the deposited data

How the results depend on the processing

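The median log2 fold change of the members stayed above 0 in all 3 comparisons under every alternative run, while the number past the adjusted threshold did not hold. With array weights 8 members passed in cngc1-3 against Col-0, where 9.0% of tested probe sets did, and 5 in cngc19 against Col-0, where 7.67% did. Leaving out Col-0 replicates 2 and 3 together gave medians of 0.58 in cngc1-3 and 0.27 in cngc19. Leaving out replicate 3 of each mutant as well gave 0.63 in cngc1-3, with 26 members past the threshold (25.2% of probe sets) and 15 in cngc19 (23.8%), on a single Col-0 array that is assumed to vary like the others. Leaving out 1 array at a time gave medians of 0.95 to 2.46 and 0 to 34 calls in cngc1-3 against Col-0, 0.68 to 2.19 and 0 to 27 calls in cngc19 against Col-0, and 0.19 to 0.42 with 0 calls in cngc1-3 against cngc19. Ranked among probe sets with 1 gene name, the median member stood at 99.39 in cngc1-3 and 99.25 in cngc19. The 3 genes lower in cngc1-3 than in cngc19 turned under some settings. RPS14B was at 0.34 with array weights and 0.44 without the 4 arrays, and ran between -0.66 and 0.72 with 1 array left out. RPL4A was at 0.38 and 0.47 under the same settings, and between -0.33 and 0.25 with 1 array left out. RPS4A was at 0.084 and 0.16, at 0.035 with arrays centred on their median, and between -0.15 and 0.14 with 1 array left out. Centring on the array median moved the median of all tested probe sets to 0.49, 0.49 and 0.04 in the 3 comparisons and that of the members to 2.28, 1.96 and 0.43; quantile normalization gave 0.28, 0.30 and 0.01 against 1.63, 1.50 and 0.26, with 49, 48 and 41 members higher. Of 384 recomputed values of 12 paralogue pairs, 5 moved by more than the replicate SD. In comparisons with Col-0 that SD includes the spread of Col-0 replicate 2, so large shifts can count as unmoved. For RPL14A minus RPL14B the SD was 4.17 within Col-0 and 0.036 within cngc1-3. The replicate block leaves these differences unchanged by construction. Without Col-0 replicates 2 and 3, RPL12A minus RPL12C gave 0.04 in cngc1-3 and 0.17 in cngc19 against Col-0, and RPS4A minus RPS4D -0.44 and -0.21. With a pseudocount of 64, RPS12A minus RPS12C gave -0.65 in cngc1-3 against Col-0. The cause of these shifts was not tested. Deviations from the line mean correlated at -0.234 to 0.190 for same-numbered arrays of different lines, and at -0.229 to 0.242 for differently numbered ones. These deviations are centred within only 3 arrays a line, so they cannot exclude pairing by replicate number. With the replicate block 0 members passed in each comparison.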

Other observations

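The 7 probe sets shared by several genes, which the rule leaves out, were read beside the members. The shared probe set of RPS16A and RPS16C had 5799, 4771 and 4024 in cngc1-3 and 4885, 4320.3 and 3428 in cngc19, against 3732, 498 and 2242 in Col-0. That of RPS20A and RPS20C had 3886, 2728 and 3357 in cngc1-3 and 2766, 2536 and 1909.7 in cngc19, against 1798, 14.6 and 1739 in Col-0. In both, Col-0 replicate 2 was the lowest array, as it was for 44 of the 49 members. The probe set of RPL6B and a second gene was high on Col-0 replicate 1, at 663, 880.2 and 726 in cngc1-3 and 790.0, 779.8 and 894 in cngc19, against 1025, 135 and 463 in Col-0.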
